A study of Rattus norvegicus with 6 samples.

Results

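Neurotrophins and their receptors were described in transplanted rat hearts from young and aged donors. The 5 genes were Bdnf and Ntf3, which encode 2 of the ligands, and Ntrk2, Ntrk3 and Ngfr, which encode 3 of the receptors. They were taken by gene symbol from a table of 22250 genes and all 5 were found and passed the filter on low counts. They were chosen by their read counts in these same 6 hearts, so their differences between aged and young donors are given as a description, with no test, and nothing is supported with them.

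Gene expression was measured by RNA sequencing of left ventricular myocardium from 3 young and 3 aged donor hearts of male wild-type Sprague-Dawley rats. Young donors were 10 weeks old and aged donors were 1 year old, and the titles mark the young hearts as WT and the aged hearts as OT. All hearts had been stored cold in University of Wisconsin solution, transplanted heterotopically into young syngeneic recipients and collected on postoperative day 1, so that storage, transplantation and a young host were common to both groups. Hearts that had not been transplanted were not analysed here, and each sample was bulk tissue, which can also hold cells of the recipient.

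Neurotrophins are secreted growth factors that are made as precursors and cut into mature dimers. BDNF binds TrkB (encoded by Ntrk2), NT-3 binds mainly TrkC (Ntrk3), and both of them and their precursors can bind the p75 receptor (Ngfr), which pairs with sortilin (Sort1). Trk receptors are tyrosine kinases that drive survival and growth through Ras, phosphoinositide 3-kinase and phospholipase C, whereas p75 belongs to the tumour necrosis factor receptor family. In the heart, BDNF with TrkB and NT-3 with TrkC are known from the growth of coronary vessels and of cardiac nerves.

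Reads on genes ranged from 21457509 to 22277905 in the young hearts and from 22508040 to 24560869 in the aged hearts, so 3 reads amounted to between 0.122 and 0.140 CPM by library totals. The CPM values below are read counts scaled to library sizes adjusted by TMM factors (trimmed mean of M-values), from 0.733 to 1.24. Of the marker genes of cardiomyocytes, 10 of 10 in the table were tested. Their summed level was 68977 and 74824 CPM in young animals 3 and 13 and 9518 CPM in young animal 15. In the aged hearts it was 555 CPM in animal 3 and 5432 and 6626 CPM in animals 4 and 7. Young animal 15 therefore stood apart from the other young hearts, and values without it are given beside the described genes and most counts below. Aged animal 3 likewise stood apart from the other aged hearts, and fits without it enter the ranges given for 1 heart left out. The young hearts had between 135 and 318 CPM of neutrophil markers and 329 to 970 CPM of macrophage markers, and the aged hearts had 642 to 1860 and 1013 to 2435 CPM. In bulk tissue, fewer cells of a type and less RNA per cell cannot be told apart.

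In the tested genes as a whole, 1815 of 13784 (13.2%) were higher and 2621 (19.0%) were lower in aged hearts past the limits used, which were an unadjusted p under 0.05 by edgeR's quasi-likelihood test together with a ratio of aged to young above 1.5 or below 0.67. Every aged heart lay above every young heart in 21.0% of the genes and below in 20.7%. Of the 5 chosen genes, 3 lay below in this way and the other 2 overlapped, a count that their selection fixed and from which nothing is read. No gene had an adjusted p under 0.05 by edgeR with Benjamini-Hochberg adjustment (smallest 0.0916), against 4731 genes at an unadjusted p under 0.05, and DESeq2 gave 3592, limma-voom 8417 and edgeR without young animal 15 gave 6815 genes with an adjusted p under 0.05.

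Bdnf encodes brain-derived neurotrophic factor, the ligand of TrkB. Its deposited gene model (ENSRNOG00000047466, Rnor_6.0 chr3:100768637-100819210, plus strand) covers a gene that is known to be read from several alternative first exons. One promoter window of Bdnf and 1 of Ntf3 are shown because both ligands stood lower in aged hearts, with values given below. The promoter table, from RefSeq on the newer build GRCr8, held 6 windows for Bdnf and 3 for Ntf3, and Ntrk2, Ntrk3 and Ngfr had none. A search of the 250 bases before each start, on both strands, used TGACG (the core of the cAMP response element), GGGCGG (a GC box) and CACGTG (an E-box), none of which overlapped another in the windows shown. The window of Bdnf given first carries the first motif on its minus strand (as CGTCA, in capitals) 35 bases before the start, and it was the only one of the 6 Bdnf windows with a match to it. Another Bdnf window, not shown here, held 2 GC boxes, 62 and 43 bases before its start. The window of Ntf3 carries a GC box (GGGCGG, in capitals) 73 bases before the start, and the other 2 windows of Ntf3 hold 1 each, of which one window is the same stretch displaced by 1 base.
Bdnf, GRCr8 chr3:116637608-116637857, plus strand: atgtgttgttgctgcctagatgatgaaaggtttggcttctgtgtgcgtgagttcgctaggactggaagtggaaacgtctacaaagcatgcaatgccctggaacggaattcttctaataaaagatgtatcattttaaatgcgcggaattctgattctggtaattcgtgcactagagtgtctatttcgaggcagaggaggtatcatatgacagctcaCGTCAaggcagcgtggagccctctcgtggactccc
Ntf3, GRCr8 chr4:160670624-160670873, minus strand: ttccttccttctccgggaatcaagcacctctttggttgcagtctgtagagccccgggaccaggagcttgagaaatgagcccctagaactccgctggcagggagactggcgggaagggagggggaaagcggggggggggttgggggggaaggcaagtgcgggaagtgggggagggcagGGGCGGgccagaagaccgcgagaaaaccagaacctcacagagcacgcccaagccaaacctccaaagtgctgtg
Of all 33469 windows of the table, 18.2% held TGACG, 30.5% the GC box and 5.59% the E-box, and these matches are a description of letters, not of binding.

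Bdnf had 556, 643 and 317 reads in young animals 3, 13 and 15 and 12, 283 and 206 reads in aged animals 3, 4 and 7. On the scale of CPM it stood at 33.6, 40.9 and 13.1 in the young hearts and at 0.394, 10.7 and 7.89 in the aged hearts. Every aged heart was below every young heart, although the gap between young animal 15 and aged animal 4 was small, and aged animal 3 was far below all others, at 12 reads with an exact Poisson 95% interval of 6.20 to 21.0 for counting error only. The group means were 29.2 ± 14.4 and 6.34 ± 5.34 CPM (SD, n = 3 each), and the fitted log2 fold change was −2.20 (standard error 1.03). Without young animal 15 it was −2.52 and without aged animal 3 it was −1.64, and in no setting did it change sign. By the deposited FPKM, which scales to gene length, Bdnf stood at 4.27, 4.94 and 2.34 in the young hearts and 0.0805, 1.999 and 1.51 in the aged hearts.

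Ntf3 encodes neurotrophin-3, the main ligand of TrkC (ENSRNOG00000019716, Rnor_6.0 chr4:158636884-158705886, minus strand). It had 82, 87 and 28 reads in the young hearts and 35, 17 and 23 reads in the aged hearts, which is 4.96, 5.53 and 1.156 CPM against 1.149, 0.644 and 0.881 CPM. The hearts of young animals 3 and 13 stood apart from the other 4, and young animal 15 lay at the level of the aged hearts, with the highest aged heart just below it in CPM and above it in reads. The means were 3.88 ± 2.38 and 0.891 ± 0.253 CPM (SD, n = 3 each), and the fitted log2 fold change was −2.11 (standard error 0.64), and it was −2.51 without young animal 15.

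Ntrk2 encodes TrkB, the kinase receptor of BDNF (ENSRNOG00000018839, Rnor_6.0 chr17:5933729-6244676, minus strand). It had 275, 152 and 569 reads in the young hearts and 45, 27 and 27 reads in the aged hearts, which is 16.6, 9.66 and 23.5 CPM against 1.48, 1.02 and 1.03 CPM. The 3 aged hearts lay close together and far below the young hearts, and young animal 15 was the highest of all 6, opposite to its place for both ligands. The means were 16.6 ± 6.91 and 1.18 ± 0.259 CPM (SD, n = 3 each), 14.0-fold lower in aged hearts, with a log2 fold change of −3.81 and a standard error of 0.42, the steepest of the 5 genes. It was −3.43 without young animal 15, and on the log2(FPKM + 0.1) scale, which understates the change of low genes, it was −2.56.

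Ntrk3 encodes TrkC, the kinase receptor of NT-3 (ENSRNOG00000018674, Rnor_6.0 chr1:139890560-140262503, minus strand). It had 73, 49 and 26 reads in the young hearts and 57, 16 and 27 reads in the aged hearts, which is 4.41, 3.11 and 1.07 CPM against 1.87, 0.606 and 1.03 CPM. The groups overlapped, as young animal 15 lay beside the lower aged hearts and aged animal 3 lay above young animal 15. The means were 2.87 ± 1.68 and 1.17 ± 0.643 CPM (SD, n = 3 each), and the fitted log2 fold change was −1.28 (standard error 0.65), and −1.64 without young animal 15. Counts per gene do not separate the full-length forms of TrkB and TrkC from their forms without a kinase domain.

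Ngfr encodes p75, the low-affinity receptor shared by all neurotrophins (ENSRNOG00000005392, Rnor_6.0 chr10:83389847-83408061, minus strand). It had 20, 40 and 584 reads in the young hearts and 428, 572 and 296 reads in the aged hearts, which is 1.21, 2.54 and 24.1 CPM against 14.0, 21.7 and 11.3 CPM. Young animals 3 and 13 were low, and young animal 15 was the highest of the 6 hearts, so the groups overlapped. The means were 9.29 ± 12.9 and 15.7 ± 5.36 CPM (SD, n = 3 each), and the fitted log2 fold change was 0.75 (standard error 1.04). Without young animal 15 the log2 fold change was 3.10, so that this heart decides the size of the difference.

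**Figure D1:**
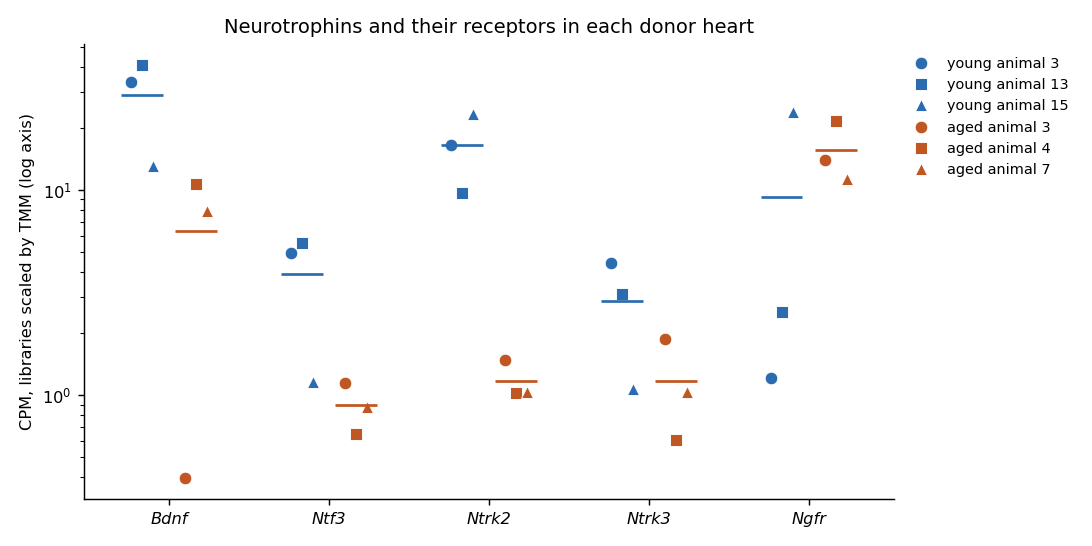
Level of each of the 5 genes in every heart, in CPM on a log axis, with 1 point per heart, a marker shape for each animal (triangles for young animal 15 and aged animal 7) and short lines for the group means. The aged hearts lie below the young hearts for Bdnf, Ntf3 (by 1.149 against 1.156 CPM at the edge) and Ntrk2, and overlap with them for Ntrk3 and Ngfr.

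The size of these differences depended on single hearts to an unequal degree. When each of the 6 hearts was left out in turn, log2 fold changes ran from −4.08 to −3.43 for Ntrk2, from −2.81 to −1.64 for Bdnf, from −2.51 to −1.76 for Ntf3, from −1.78 to −0.82 for Ntrk3 and from 0.23 to 3.10 for Ngfr. With library totals in place of TMM factors, the median log2 fold change of all genes moved from 0.016 to 0.46, and the 5 genes stood at −1.69 for Bdnf, −1.52 for Ntf3, −3.43 for Ntrk2, −0.70 for Ntrk3 and 0.92 for Ngfr. None of the 5 changed its sign under these settings.

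**Figure D2:**
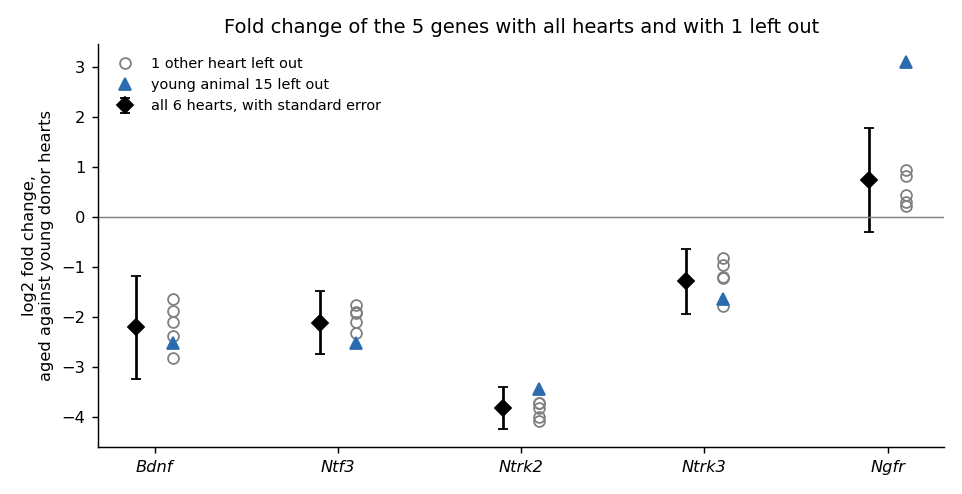
Log2 fold change of aged against young hearts on the vertical axis for each of the 5 genes, with diamonds and standard error bars for the fit to all 6 hearts, triangles for the fit without young animal 15 and open circles for the fits without 1 other heart. Ntrk2 stays between −4.08 and −3.43, whereas Ngfr reaches 3.10 when young animal 15 is left out.

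Other genes of the family were not listed by the rule. Ntf4, which encodes neurotrophin-4, another ligand of TrkB, was higher in aged hearts at 12, 28 and 43 reads against 3, 0 and 8 reads in young hearts. Its groups did not overlap, and its log2 fold change was 2.46 with a standard error of 0.94, an unadjusted p of 0.0375 and an adjusted p of 0.127 by edgeR with Benjamini-Hochberg adjustment. The call was lost in 4 of the 6 fits that left out 1 heart, those without young animal 3 or 13 (2.47 and 1.96) or aged animal 4 or 7 (2.46 and 1.98), and the log2 fold change was 3.44 without young animal 15.

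Among the receptors outside the rule, Sort1 encodes sortilin, the partner of p75 in binding precursors, and stood at a mean of 120.6 CPM in young and 103.8 CPM in aged hearts, with a log2 fold change of −0.22, a standard error of 0.25 and an unadjusted p of 0.421 by edgeR. Sorcs1 and Sorcs2, sorting receptors related to sortilin, gave −0.91 (standard error 0.71) and −0.31 (standard error 0.30), with unadjusted p of 0.244 and 0.340 by edgeR. With library totals the sign of Sort1 and Sorcs2 turned, to 0.28 and 0.14. Sorcs3 had no read in any heart. Sorl1 was also listed, but no gene under that symbol was found in the deposited table, so it was not analysed.

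Levels of different genes were compared only per gene length, by FPKM. In the young hearts Bdnf stood at 3.85 ± 1.35 FPKM, Ntf3 at 1.95 and Ntf4 at 0.125, where Bdnf overlapped with Ntf3 over the hearts and Ntf3 lay above Ntf4 in every heart. In the aged hearts Bdnf stood at 1.20 ± 0.997 FPKM, Ntf4 at 0.905 and Ntf3 at 0.679, with overlap between Bdnf and Ntf4 and between Ntf4 and Ntf3. Of the receptors, Sort1 was highest in both groups, at 15.2 ± 1.93 FPKM in young and 18.4 ± 5.05 FPKM in aged hearts, and Ngfr followed at 2.97 and 5.64 FPKM. The place of Ngfr in the young hearts rests on young animal 15, at 8.06 FPKM, since young animals 3 and 13 stood at 0.286 and 0.573 FPKM. Their mean for Ngfr was 0.430 FPKM, below their means of 1.298 for Sorcs2, 0.931 for Ntrk2 and 0.930 for Ntrk3. Ntrk2 stood at 1.42 FPKM in young hearts, beside Sorcs2 at 1.43, and at 0.131 FPKM in aged hearts, where it overlapped with Sorcs1 at 0.317 FPKM. Ntrk3 stood at 0.748 and 0.459 FPKM and overlapped with Sorcs1 in both groups.

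The ratio of 2 FPKM values within a heart is free of the scaling between hearts. Ngfr to Ntrk2, the p75 receptor to TrkB, was 0.239, 0.864 and 3.37 in the young hearts and 31.2, 69.6 and 36.0 in the aged hearts. The ratio was higher in each aged heart than in each young heart, and it rests on 2 genes chosen on this contrast. Young animal 15 had the highest ratio of the young hearts.

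**Figure D3:**
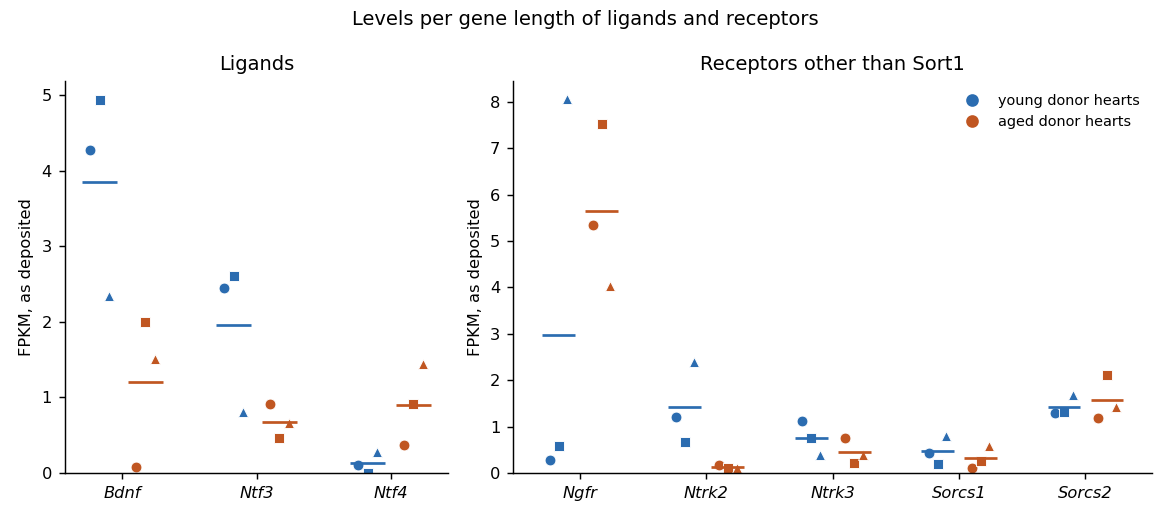
Level of 3 ligands (left) and of 5 receptors other than Sort1 (right) in every heart, as deposited FPKM on a linear axis, with 1 point per heart and short lines for the group means. Bdnf overlaps with Ntf3 in the young hearts, and Ntrk2 has means of 1.42 FPKM in young and 0.131 FPKM in aged hearts.

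The pathway downstream of these receptors was taken from the KEGG neurotrophin signaling pathway as annotated in the deposited table. It held 113 genes, and without the 5 described genes 108 remained, of which 100 were tested. In aged hearts 21 of these (21.0%) were higher and 11 (11.0%) were lower past the limits, beside 13.2% and 19.0% of all tested genes, and 68 did not pass. The median log2 fold change was 0.15 beside 0.016 for all genes. No gene of the pathway had an adjusted p under 0.05 by edgeR, and every aged heart lay above every young heart in 34 of its 100 tested genes and below in 15, beside 21.0% and 20.7% of all tested genes. With library totals the counts were 36 higher and 3 lower, beside 22.8% and 10.4% of all tested genes, whose calls went from 40.9% to 68.6% higher. Without young animal 15 they were 35 and 17 of 101, beside 26.9% and 24.2% of all tested genes. Without another heart, between 10 and 14 were higher and between 3 and 6 lower. Over all tested genes those fits called 817 to 1404 higher and 1615 to 2160 lower of 14024 to 14089, beside 1815 and 2621 of 13784 with all hearts.

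Rps6ka6, a ribosomal S6 kinase, had the largest fitted rise of the pathway (2.90) but a mean of 0.105 CPM in young and 0.820 CPM in aged hearts, under the level set for named genes. Of the genes above that level that passed both limits and did not overlap between the groups, those with the largest rises were Sh2b2, an adaptor that binds activated receptor kinases, Irak2, a kinase of interleukin-1 and Toll-like receptor signalling, and Arhgdib, a regulator of small GTPases known from blood cells. Sh2b2 was 8.19 ± 7.53 CPM in young and 37.8 ± 5.42 CPM in aged hearts (log2 fold change 2.20, standard error 0.64, and 3.33 without young animal 15). Irak2 was 8.41 against 28.3 CPM (1.74, standard error 0.42) and Arhgdib 52.4 against 170.8 CPM (1.71, standard error 0.34). The other genes that passed in this direction include the inhibitors of NF-kappaB Nfkbia (1.20) and Nfkbie (1.495), the death gene Bax (1.165) and the small GTPase Rap1b (1.02).

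By the same rule, the largest falls of the pathway were those of Camk2a and Rps6ka5. Camk2a, a calcium and calmodulin dependent kinase, stood at 16.3 CPM in young and 2.41 CPM in aged hearts (log2 fold change −2.76, standard error 1.10). It had 2 reads in aged animal 3 against 117 and 71 in aged animals 4 and 7, and the log2 fold change was −2.18 without aged animal 3. Rps6ka5, a nuclear kinase downstream of MAP kinases, stood at 31.2 and 8.65 CPM (−1.85, standard error 0.39). Camk2a lost its call in 4 settings, with library totals and without young animal 3, young animal 13 or aged animal 7. The other genes that fell include Irs1 (−1.40) and Pik3r1 (−0.90), which link receptors to phosphoinositide 3-kinase, Akt2 (−0.91) below it, and Map3k5 (−1.37) and Mapk9 (−0.65) of the stress kinase cascade.

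**Figure D4:**
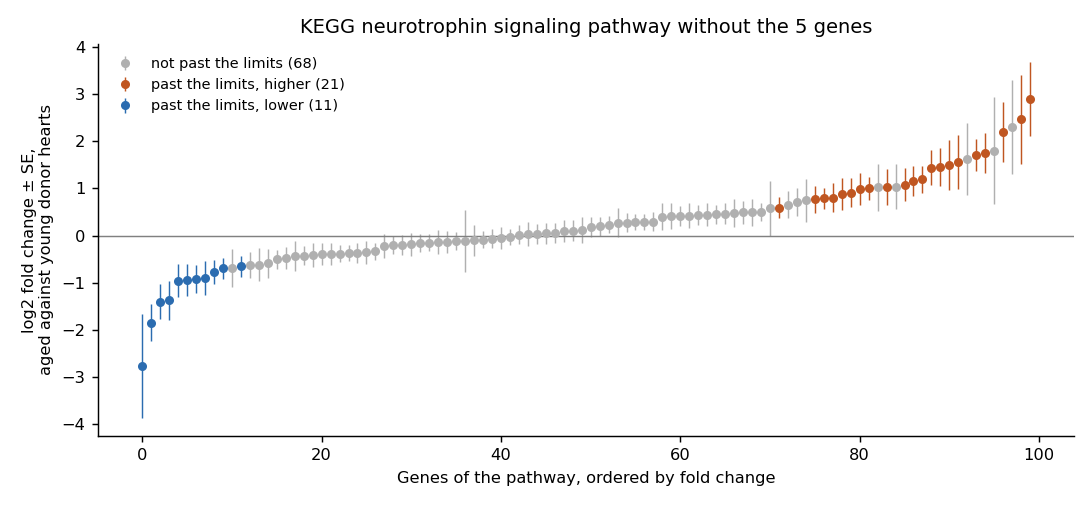
Log2 fold change of aged against young hearts, with its standard error as a bar, for the 100 tested genes of the KEGG neurotrophin signaling pathway without the 5 described genes, ordered by value and coloured by call. The calls are 21 higher and 11 lower, and the median of the genes is 0.15.

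By role, 93 genes of hand-written lists were in the table, of which 83 were tested and 52 of the 93 were also in the KEGG pathway. In aged hearts 12 were higher (14.5%) and 12 lower (14.5%), beside 13.2% and 19.0% of all tested genes, and the median log2 fold change was 0.095. With library totals the counts were 26 (31.3%) and 6 (7.23%), beside 22.8% and 10.4% of all tested genes. Without young animal 15 they were 30 (34.9%) and 16 (18.6%) of 86, beside 26.9% and 24.2% of all tested genes. The shares in each list below are to be read beside the 13.2% and 19.0%, and lists of so few genes turn on single calls. Of the genes that cut precursors of neurotrophins, 10 were tested and 20% fell, namely Plg (plasminogen, −2.99, standard error 0.73) and Pcsk6 (a proprotein convertase, −1.83), whereas Furin gave 0.43 and Plau 1.79 and were not called. Of the adaptors and kinases below the Trk receptors, 39 were tested, with 15.4% higher and 12.8% lower, which are 6 higher (among them Shc1, Sh2b2, Nras, Pik3cb and Rps6ka1, 0.80 to 2.20) and 5 lower (Frs3, Gab1, Irs1, Pik3r1 and Akt2, −1.40 to −0.65). Of the partners and mediators of p75, 20 were tested, with 5% higher and 10% lower, and Ripk2, a kinase of inflammatory signalling, rose by 1.44 while Map3k5 and Mapk9 fell. Every aged heart lay above every young heart in 8 of these 20 and below in 5, beside 21.0% and 20.7% of all tested genes. Without young animal 15, 9 of 21 (42.9%) were higher and 2 (9.52%) lower. In that fit the adaptors had 10 higher and 7 lower of 39, and the genes that cut precursors 4 and 2 of 11.

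The inhibitors of Trk signalling held 14 tested genes, with 5 higher (35.7%) and 3 lower (21.4%), beside 13.2% and 19.0% of all tested genes. Without young animal 15 there were 7 higher (46.7%) and 5 lower (33.3%) of 15, beside 26.9% and 24.2% of all tested genes. Dusp6, a phosphatase of ERK, was 28.0 ± 16.7 CPM in young and 118.0 ± 20.1 CPM in aged hearts (log2 fold change 2.07, standard error 0.43, and 2.72 without young animal 15), and Spry4, an inhibitor of Ras signalling, rose by 1.69. Spred1 (0.96), Cbl (0.95) and Ptpn1 (0.93) also passed, in the same direction. Ptprs, a receptor phosphatase, was 240.8 and 72.2 CPM (−1.74, standard error 0.49), and Lrig1 (−1.62) and Spry1 (−0.81) fell as well. The genes named here as past the limits lay outside the range of the other group in every heart, except Pcsk6, Gab1 and Pik3r1, and the largest rises and falls had adjusted p from 0.0916 to 0.136 by edgeR.

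The list of neurons, whose fibres in the heart respond to neurotrophins, had 6 tested genes of 20. None was past the limits, beside 13.2% higher and 19.0% lower of all tested genes. The sum was 16.8 to 79.4 CPM in young and 68.9 to 82.8 CPM in aged hearts, where young animal 15 lay with the aged hearts. Much of the difference in this sum came from Tubb3 and Uchl1. In young animals 3, 13 and 15 Tubb3 stood at 1.51, 1.27 and 27.0 CPM and Uchl1 at 0.907, 0.636 and 11.2 CPM. In aged animals 3, 4 and 7 Tubb3 stood at 48.3, 34.7 and 34.1 CPM and Uchl1 at 3.35, 11.4 and 23.6 CPM. Calca, Chat, Slc18a3 and Tac1 were at 0 reads in every heart. The Schwann cell list, cells that can carry p75, had 14 tested genes, with 2 higher (Erbb3 and Mbp) and 5 lower (among them Cdh19, Gfra3, Lgi4 and Scn7a). These are 14.3% and 35.7%, beside 13.2% and 19.0% of all tested genes. Without young animal 15 they were 28.6% and 35.7%, beside 26.9% and 24.2%. Kcna1 was at 0, and the sum was 201 to 281 CPM in young and 207 to 239 CPM in aged hearts. Much of this sum came from Pmp22, with means of 95.5 and 82.4 CPM, and Erbb3, with 21.3 and 57.9 CPM. The overlap of the sums therefore does not stand for each gene of the list.

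Beside the shares of all tested genes, 13.2% higher, 19.0% lower and 20.7% below in every aged heart, 4 of 10 cardiomyocyte genes fell (Atp2a2, Myh6, Myl2 and Pln), and 8 of 10 were lower in every aged heart than in every young heart. Of fibroblast genes 6 of 11 fell, with a sum of 8316 to 10111 CPM in young and 2452 to 4830 CPM in aged hearts. In endothelial cells 1 of 8 genes fell (Emcn), and the sums overlapped at 1305 to 1940 and 1123 to 1612 CPM. Cldn5 had 0 reads counted in every heart, beside 6518 to 14657 reads of Cdh5 from the same list, and the cause was not tested. In mural cells 1 rose (Mcam) and 2 fell (Abcc9 and Rgs5) of 12, and the sums were 4181 to 8731 and 1569 to 6117 CPM. Of these mural sums, Des alone gave 2369 to 7410 CPM in young and 139 to 4624 CPM in aged hearts, whereas Rgs5 had means of 231 and 45.7 CPM. Macrophage genes rose in 6 of 10, neutrophil genes in 5 of 9 and T cell genes in 2 of 8, the last at 34.2 to 82.8 CPM in young and 99.7 to 151 CPM in aged hearts. Without young animal 15, an alternative added after the data were seen, 6 of 10 cardiomyocyte and 6 of 11 fibroblast genes fell, and 9 of 10 macrophage, 8 of 9 neutrophil, 2 of 8 T cell and 3 of 6 neuron genes rose, beside 26.9% higher and 24.2% lower of all tested genes. The part of these cell types in the values of the 5 described genes was not tested.

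**Figure D5:**
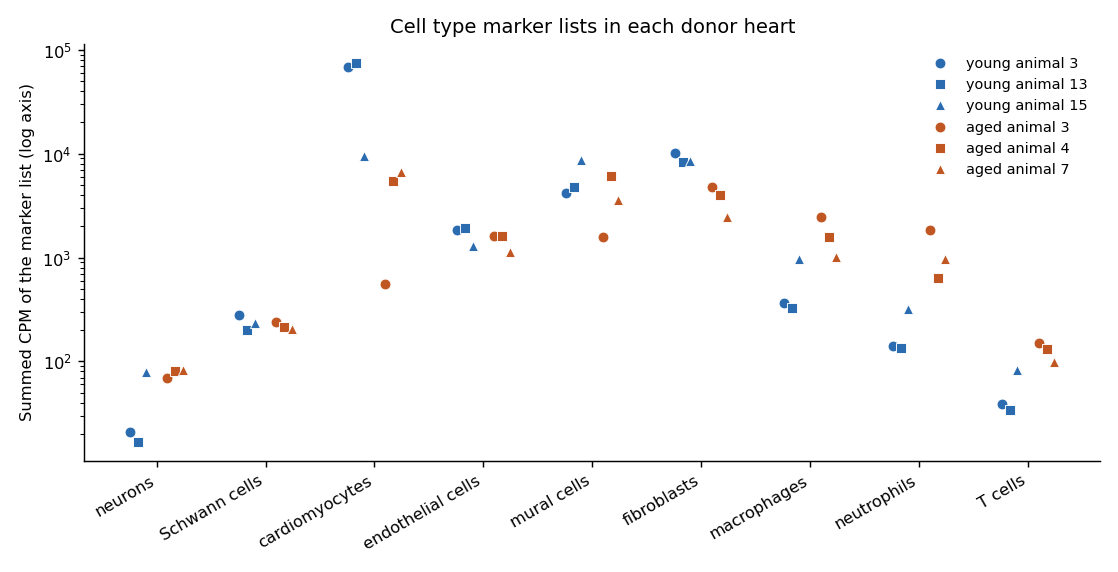
Summed CPM of each marker list in every heart on a log axis, with 1 point per heart and a marker shape for each animal. The cardiomyocyte sum of young animal 15, at 9518 CPM, lies between those of the other young hearts and the aged hearts, and the sums of neurons and Schwann cells overlap between the groups.

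Genes whose pattern over the 6 hearts was nearest to each described gene were taken by the mean absolute difference of centred log2 CPM, among 12956 tested genes of at least 1 CPM in mean. For Ntf3 these were Socs2 (0.0961), Wdr66 (0.120) and Mogat2 (0.128), and for Bdnf they were Rbm20 (0.109), Gpm6a (0.146) and Sptb (0.181). For Ntrk2, Aldh3a1 (0.319), Mcpt1l1 (0.459) and Mx2 (0.477) were nearest, for Ntrk3, Ccdc30 (0.178), Cacna1d (0.198) and Mr1 (0.202), and for Ngfr, Slamf9 (0.193) and Cela1 (0.295) were among the 3 nearest. Among the 5 genes themselves, the closest were Ntf3 and Ntrk3, ligand and receptor, at 0.323, although 145 genes were nearer to Ntf3 and 53 nearer to Ntrk3, and the farthest were Ngfr and each of the others, at 2.19 to 2.73.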

How the data were processed

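RNA sequencing was done on left ventricular myocardium of 6 transplanted hearts, 3 from young and 3 from aged donors. Per the submitters' processing notes, which give no roles, HISAT2 2.0.5, StringTie 1.3.3b, featureCounts 1.5.0-p3, DESeq2 1.16.1 and GATK 3.7 were named with the genome build Rnor_6.0. The authors deposited one table with a raw read count per gene and heart and with FPKM per gene and heart, which scales the count to gene length and library size. The columns of the authors' own comparison were not used, and 0 columns belonged to other samples. The FPKM of 1 gene, not described here, did not match its count in aged animal 3. Whether counting used strand is not given in the sources used here.

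Counts as deposited were fitted with edgeR 4.0.16 in R 4.3.3 (TMM, filterByExpr with donor group, glmQLFit and glmQLFTest), with CPM from TMM-scaled libraries, and 13784 of 22250 genes were tested. The limits were an unadjusted p under 0.05 and a ratio of aged to young above 1.5 or below 0.67. Each edgeR p-value tests the difference between the groups against the spread of these hearts within groups, estimated with information from all tested genes. The script was tested on simulated data. DESeq2 1.42.0, limma-voom 3.58.1 with sample quality weights, other scalings, filters, log2(FPKM + 0.1) and leaving out each heart were alternatives. Pairs of hearts within a group differed by more than sampling noise in their counts (chi-square per degree of freedom from 10.2 to 529), so all 6 were counted. The members and gene lists were chosen with earlier results of these data known. Genes were named by a fixed rule, all 5 members and the other ligands and receptors, and of the pathway and lists together the 5 largest rises and falls past the limits with at least 1 CPM in mean and no overlap, and 3 nearest genes per member. Other genes of the lists were named after their values were seen. Some genes that the rule or the lists name are not reported here. Intervals cover counting error only. Promoter windows came from RefSeq on GRCr8, and no coordinate was converted between builds.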

Additional observations from a re-analysis of the deposited data

How the results depend on the processing

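On the log2(FPKM + 0.1) scale the log2 fold change was −2.56 for Ntrk2, −1.28 for Ntf3, −0.62 for Ntrk3 and 2.12 for Ngfr, and that of Ngfr was 3.02 with limma-voom and 3.10 without young animal 15. Leaving out 1 heart gave −2.81 to −1.64 for Bdnf, −2.51 to −1.76 for Ntf3, −4.08 to −3.43 for Ntrk2, −1.78 to −0.82 for Ntrk3 and 0.23 to 3.10 for Ngfr. The 21 higher and 11 lower pathway genes became 36 and 3 with library totals, 31 and 18 with limma-voom, 0 and 0 at adjusted p under 0.05, and 10 to 35 and 3 to 17 without 1 heart. The 12 and 12 genes of the hand-written lists became 26 and 6 with library totals, 25 and 18 with limma-voom, 0 and 0 at adjusted p, and 6 to 30 and 6 to 16 without 1 heart, where the highest counts were without young animal 15. The calls of all tested genes moved as well, from 1815 higher and 2621 lower to 3147 and 1440 with library totals and 3688 and 3815 with limma-voom. Without 1 heart they ran from 817 to 3802 higher and from 1615 to 3412 lower, again highest without young animal 15. With library totals Sort1 (0.28), Sorcs2 (0.14) and Gfra2 (0.0043) changed sign, as did Gdnf without young animal 3 and Ncam1 without young animal 3 or 13 or aged animal 4 or 7, and over all 6 hearts left out in turn Gdnf ran from −0.11 to 3.41 and Ncam1 from −0.36 to 3.19. The cause was not tested. The 5 described genes kept their sign in every setting, although Ngfr fell under the limit on the ratio in some fits without 1 heart. For the other single genes, 221 values kept their direction and their side of the p limit. Of the rest, 18 no longer passed the p limit, 12 newly passed it and 8 changed sign. No paired analysis was possible because the groups share only 1 animal number, which names different animals. Low counts, such as the 12 reads of Bdnf in aged animal 3, limit the precision, although this heart had the most reads on genes (24560869).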

Other observations

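The GDNF family is a second set of neurotrophic factors, whose ligands act through Ret with a GFRA co-receptor. The list written for this family also held Gdf15 and Ncam1. Of its 11 genes in the table, 9 were tested. In aged hearts 1 was higher, which was Gdf15, and 4 were lower (11.1% and 44.4%, beside 13.2% and 19.0% of all tested genes). Without young animal 15 there were 4 higher and 4 lower of 9, beside 26.9% and 24.2% of all tested genes. Gdf15, a stress-induced cytokine, rose, with 2.11 ± 1.74 CPM in young and 14.8 ± 1.56 CPM in aged hearts (SD, n = 3 each) and a fitted log2 fold change of 2.79 (standard error 0.64), which was 3.697 without young animal 15. Ret, the receptor kinase, had 258, 322 and 59 reads in the young hearts and 93, 89 and 26 reads in the aged hearts (log2 fold change −2.37, standard error 0.84), so the groups overlapped in reads. Nrtn, which encodes neurturin, had 120, 117 and 47 reads against 13, 39 and 56 (−2.03, standard error 0.74), and the calls of Ret and Nrtn were each lost in 5 settings. The co-receptors Gfra3 (−1.69, standard error 0.47) and Gfra4 (−3.20, standard error 0.86) fell, and Gfra3 was also on the Schwann cell list.

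Artn, which encodes artemin, had 3, 0 and 37 reads in the young hearts and 53, 50 and 76 in the aged hearts and was not called (unadjusted p of 0.143 by edgeR), with a log2 fold change of 1.85, and of 4.52 without young animal 15. Ncam1, an adhesion molecule that can bind GDNF, had 272, 264 and 8764 reads in the young hearts and 705, 5687 and 5321 in the aged hearts, with a log2 fold change of 0.16 that was 3.19 without young animal 15. For Ngfr, Artn and Ncam1, young animal 15 lay far from young animals 3 and 13.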
